A study of Homo sapiens with 40 samples.

Results

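Small nucleolar RNA (snoRNA) host genes are transcribed by RNA polymerase II into long RNAs whose introns hold snoRNAs. The genes described here are 10 noncoding hosts named by symbol, GAS5, SNHG1, SNHG5, SNHG6, SNHG7, SNHG8, SNHG12, SNHG15, SNHG16 and SNHG17, out of 63152 Ensembl genes in the count tables. All 10 symbols matched an entry and all 10 passed the filter on low counts, which left 12557 genes. The data are 40 RNA-seq libraries of total RNA from U2OS cells, a human osteosarcoma line that stably carries a doxycycline-inducible (TetOn) MYC gene (10 groups of 4 libraries). In doxycycline (Dox, 1 µg/ml for 24 h) there were cells with shCTR9 hairpins 3 and 5, shCDC73 hairpins 3 and 4, and the control hairpin shNTC. The groups in ethanol (EtOH, 24 h) were those hairpins again. Every group, the controls included, carries the MYC system and a hairpin from the pGIPZ lentiviral vector, and the cells had been selected in puromycin at 0.2 µg/ml for 24 h before treatment. All cells come from this single line, and the labels do not say whether the libraries of a group are separate cultures, so p-values measure the spread between libraries, which may be technical.

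The snoRNAs in the introns guide the chemical modification of ribosomal RNA. They are cut out of the excised introns, while the spliced host RNA is often short-lived, because ribosomes read it as a message with an early stop codon and nonsense-mediated decay removes it. Many host genes start transcription at a run of pyrimidines (a terminal oligopyrimidine, or TOP, start), as ribosomal protein genes do. MYC is a transcription factor that drives growth genes, and the PAF1 complex, to which CTR9 and CDC73 both belong, travels with RNA polymerase II during elongation.

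By the RefSeq table, 39 snoRNA genes lie within the 10 hosts. Most of those in GAS5, SNHG1, SNHG5, SNHG6 and SNHG16 are box C/D snoRNAs, which guide methylation of ribose, and most of those in SNHG7, SNHG8, SNHG12, SNHG15 and SNHG17 are box H/ACA snoRNAs, which guide pseudouridine formation. Of the 39, only 12 have an entry under that symbol in the count tables, and these hold 4 reads in all 40 libraries. The values below are therefore counts given to the host genes, and the snoRNAs have almost none of their own. Some snoRNAs without an entry lie wholly within annotated exons of their host in GENCODE. Examples are SNORA24 in SNHG8 (131 bases) and SNORD22 in SNHG1 (126 bases). Reads from such snoRNAs, if there were any, cannot be told apart from reads of the host RNA.

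The starts of 8 hosts are in the RefSeq promoter table (GRCh38.p14), and are shown because TOP starts are a known feature of this gene class. The first 25 transcribed bases read 5′ to 3′ as follows, with the C and T bases before the first purine in capitals.
GAS5: agatgtgtttattttggagcctaca
SNHG1: CTCatttttctactgctcgtggtaa
SNHG5: CTTTTacgtcggccttcgcgagcgt
SNHG7: CTCTgcgtgcgccggaggctgccgt
SNHG8: Cacattcgggaagcgtcgggattag
SNHG12: CCTTTCTCCCCgccgcattcccggt
SNHG16: gcgttcttttcgaggtcggccgcgt
SNHG17: agtccttcgccgtccctcgccgtcc
A C followed by at least 4 more C or T bases opens SNHG5 and SNHG12 of the 8, and 4.07% of all 35116 windows in the table. SNHG12 has the longest run, of 11 bases. An annotated start is a single position, so a window without such a run says only that these letters are not at that position.

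The windows of 300 bases around the starts (250 before, 50 after) were searched for CACGTG, the canonical E-box bound by MYC with its partner MAX, and for CACGCG, a known variant, on both strands. The motifs differ in 1 letter, and neither contains the other. CACGTG was found in SNHG7 alone of the 8, 122 bases before the start, and in 7.26% of all windows. CACGCG was found in SNHG1, SNHG12 and SNHG16, and in 11.4% of all windows. Of the members that rose in Dox in shNTC cells, SNHG17 held neither motif, and SNHG12 held CACGCG 150 and 73 bases before the start. The other members with a motif, SNHG1, SNHG7 and SNHG16, were not among those that rose. A link between motif and change was not tested. These matches are letters in a window and not measured binding. The windows of SNHG7 (chr9:136728135-136728434, minus strand), SNHG12 (chr1:28581824-28582123, minus strand) and SNHG17 (chr20:38435279-38435578, minus strand) are given 5′ to 3′ in GRCh38.p14, with the motifs in capitals, to set a window with an E-box beside those of the members that rose in Dox.
SNHG7: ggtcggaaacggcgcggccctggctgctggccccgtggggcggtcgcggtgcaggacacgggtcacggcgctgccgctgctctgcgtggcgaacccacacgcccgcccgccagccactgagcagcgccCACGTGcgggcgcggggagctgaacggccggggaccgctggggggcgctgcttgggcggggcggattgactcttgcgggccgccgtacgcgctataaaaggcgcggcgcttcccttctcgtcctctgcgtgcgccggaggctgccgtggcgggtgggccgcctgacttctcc
SNHG12: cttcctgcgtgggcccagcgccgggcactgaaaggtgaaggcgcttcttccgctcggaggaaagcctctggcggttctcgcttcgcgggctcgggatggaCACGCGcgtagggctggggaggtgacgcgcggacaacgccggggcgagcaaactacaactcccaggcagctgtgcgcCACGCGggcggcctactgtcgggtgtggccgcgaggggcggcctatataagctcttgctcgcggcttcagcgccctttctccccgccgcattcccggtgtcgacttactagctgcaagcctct
SNHG17: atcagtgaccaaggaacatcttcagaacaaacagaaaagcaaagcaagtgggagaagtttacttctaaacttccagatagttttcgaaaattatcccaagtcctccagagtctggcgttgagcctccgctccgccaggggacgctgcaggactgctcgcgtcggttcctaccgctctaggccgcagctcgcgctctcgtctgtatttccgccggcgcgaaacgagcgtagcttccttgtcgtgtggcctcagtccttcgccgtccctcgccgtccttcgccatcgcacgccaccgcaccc

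Library totals ran from 877323 to 1532617 counts, and levels are given as CPM, counts scaled to a common library total, on library sizes scaled by TMM, a method that aligns the bulk of genes between libraries. MYC averaged 14945 ± 667 CPM in Dox shNTC cells and 509 ± 68.2 CPM in EtOH shNTC cells (SD, n = 4 each). CTR9 stood at 25.2% of the shNTC level in Dox shCTR9 cells and at 27.4% in EtOH shCTR9 cells, and CDC73 at 27.4% in Dox shCDC73 cells and at 23.0% in EtOH shCDC73 cells. For each target, the knockdown and shNTC libraries did not overlap. CTR9 was higher in shCDC73 than in shNTC cells, at a mean of 168 against 87.9 CPM in Dox and 168 against 73.9 CPM in EtOH. CDC73 averaged 31.8 CPM in shCTR9 and 29.5 CPM in shNTC cells in Dox, and 29.4 and 35.6 CPM in EtOH. Of 7 mesenchymal markers, VIM (427 to 1370 CPM), SPARC, COL1A1 and RUNX2 passed the filter on low counts, and CDH11 (211 reads in all 40 libraries), TWIST1 (42) and COL1A2 (2) did not. Of 4 epithelial markers EPCAM passed it, at 2.85 to 14.8 CPM, and CDH1 (68 reads), KRT5 (4) and KRT19 (2) did not. None of 5 blood markers passed, with 18 reads of PTPRC, 13 of CD79A, 1 of CD3E and 0 of HBB and LYZ.

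Short transcripts took a larger part of the reads in 3 libraries than in the other 37. The slope of a gene's log2 deviation on its log2 transcript length was -0.11 in EtOH shCDC73 hairpin 4 replicate 1, -0.15 in its replicate 3 and -0.13 in EtOH shCTR9 hairpin 3 replicate 1, and lay between -0.04 and 0.04 in the rest. Of the 10 members 5 (GAS5, SNHG6, SNHG7, SNHG8 and SNHG15) were higher in each of these 3 libraries than in the other 5 libraries of the same groups. SNHG8 stood at 78.8 to 85.2 CPM in the 3 libraries, against 29.7 to 39.99 CPM in the other 5. SNHG12, SNHG5, SNHG1, SNHG16 and SNHG17 overlapped. Median transcript length was taken as the longer of the middle lengths where the number of transcripts was even, as with the 4 of SNHG7. By it SNHG7, among the 5 that were higher, was the longest of the 10, at 2.16 kb. SNHG5, among those that overlapped, had 0.672 kb. Results for knockdown in EtOH are therefore given also without the 3 libraries, which were picked by their slopes in these same data. The part of fragment length, RNA quality or preparation in this was not tested.

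The mean level over the 40 libraries ran from 38.7 CPM for SNHG5 to 208 CPM for SNHG1. Per kilobase of the median annotated transcript, taken as above, SNHG1 was highest at 278 CPM per kb and GAS5 followed at 153, and SNHG7 was lowest at 50.3. Per kilobase of all annotated exons SNHG1 was again highest at 55.3 CPM per kb, but SNHG6 at 46.2 and SNHG8 at 45.9 came before GAS5 at 28.9. The order below SNHG1 thus depends on the length used. Between groups SNHG6, SNHG5 and SNHG12 varied most, with a highest group mean 2.14, 2.11 and 2.09 times the lowest, and SNHG1 varied least, at 1.19 times.

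**Figure D1:**
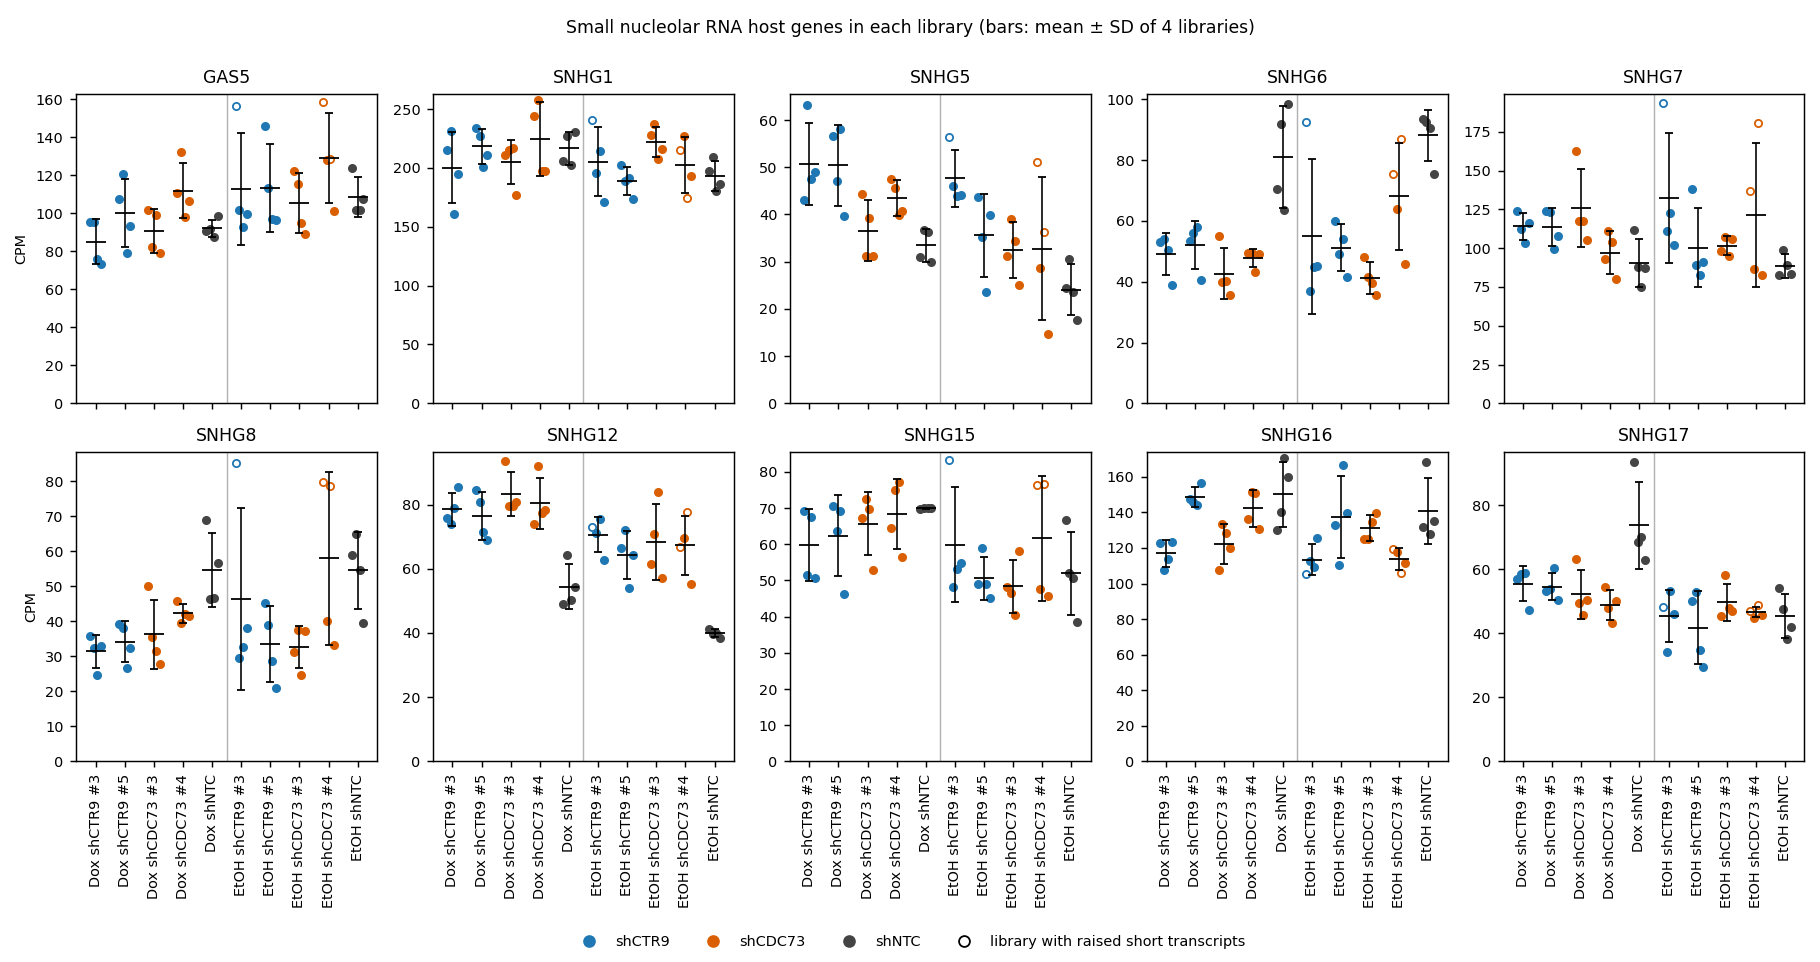
CPM of the 10 host genes (vertical axes, each from 0) in every library, by group, with Dox groups left of the line and EtOH groups right of it. Bars are mean ± SD of 4 libraries, and open points are the 3 libraries in which short transcripts were raised. SNHG12 stands at 38.6 to 41.4 CPM in EtOH shNTC and at 54.2 CPM or more in every knockdown library.

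The next question was what loss of a PAF1 complex subunit did to the hosts. SNHG12 rose and SNHG6 fell in all 4 comparisons of a knockdown with shNTC. SNHG5 rose with shCTR9 in both treatments, and SNHG17 fell with both knockdowns in Dox. SNHG8 fell with shCTR9 in Dox. It fell in all 4 comparisons once the 3 libraries were left out. Those were chosen after seeing the data and hold its highest values, so leaving them out lowers SNHG8 with knockdown in EtOH. In Dox, where none of the 3 lies, the fall added with shCDC73 came with a smaller standard error. Here a call, a rise or a fall, means an adjusted p under 0.05 in edgeR (quasi-likelihood F test, Benjamini-Hochberg over all 12557 genes), and changes are log2 fold changes ± standard error over 8 knockdown and 4 shNTC libraries. Of the 10 members, 5 were called with shCTR9 in Dox, 3 with shCDC73 in Dox, 3 with shCTR9 in EtOH and 2 with shCDC73 in EtOH. Over all genes tested the shares called were 41.8%, 44.9%, 45.6% and 49%, so the members' share was above that of all genes with shCTR9 in Dox and below it in the other 3. The median log2 fold change of the 10 members was -0.12, -0.04, 0.04 and 0.10 in that order, and that of all genes 0.01, 0.01, 0.02 and 0.01. Knockdown and shNTC libraries did not overlap for 5, 2, 1 and 1 members, against 26%, 24.2%, 24.9% and 22.2% of all genes. The libraries are of bulk cells, so fewer cells with a transcript and less of it per cell cannot be told apart.

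SNHG12, whose introns carry mainly H/ACA snoRNAs, changed in the same direction in every knockdown group. In Dox it stood at 75.8, 73.9, 78.9 and 85.5 CPM with shCTR9 hairpin 3, at 84.5, 80.9, 71.5 and 68.9 CPM with hairpin 5, and at 48.9, 64.3, 50.4 and 54.3 CPM with shNTC. With shCDC73 in Dox it stood at 93.7, 79.6, 79.5 and 80.9 CPM for hairpin 3 and at 74.0, 92.0, 77.2 and 78.2 CPM for hairpin 4. All 16 knockdown libraries lay above all 4 controls. In EtOH it stood at 73.1, 71.2, 75.6 and 62.8 CPM with shCTR9 hairpin 3, at 66.3, 72.0, 54.2 and 64.3 CPM with hairpin 5, and at 41.4, 39.8, 40.1 and 38.6 CPM with shNTC. With shCDC73 in EtOH it stood at 61.6, 70.8, 83.9 and 57.2 CPM for hairpin 3 and at 66.8, 69.5, 77.8 and 55.4 CPM for hairpin 4. The groups again did not overlap.

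The change of SNHG12 was 0.51 ± 0.11 with shCTR9 in Dox (edgeR adjusted p = 0.000168) and 0.59 ± 0.11 with shCDC73 in Dox (edgeR adjusted p = 1.57e-05). In EtOH it was 0.75 ± 0.12 with shCTR9 (edgeR adjusted p = 5.62e-07) and 0.76 ± 0.12 with shCDC73 (edgeR adjusted p = 3.39e-07). These are increases of 1.42-fold to 1.69-fold. It was called with each of the 4 hairpins alone in both treatments, and without the 3 libraries the changes in EtOH were 0.74 with shCTR9 and 0.71 with shCDC73. SNHG12 has 8 exonic bases in common with TRNAU1AP on the opposite strand. Since the strand setting of the counting is not given in the sources used here, reads in that overlap cannot be assigned. TRNAU1AP was not called in any of the 4 comparisons, at adjusted p values of 0.0531 and above, and its changes ran from -0.06 to 0.43.

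SNHG6, host of a box C/D snoRNA, was lower in knockdown cells. In Dox it stood at 52.9, 53.9, 50.4 and 38.9 CPM with shCTR9 hairpin 3, at 53.3, 56.1, 58.1 and 40.6 CPM with hairpin 5, and at 70.4, 92.0, 63.4 and 98.4 CPM with shNTC. With shCDC73 in Dox it stood at 55.1, 39.8, 40.3 and 35.6 CPM for hairpin 3 and at 49.3, 49.5, 43.3 and 49.1 CPM for hairpin 4. All 16 knockdown libraries lay below the lowest control. The change was -0.69 ± 0.16 with shCTR9 (edgeR adjusted p = 0.000524) and -0.84 ± 0.16 with shCDC73 (edgeR adjusted p = 4.13e-05).

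In EtOH the groups overlapped for SNHG6. It stood at 92.6, 37.1, 44.9 and 45.1 CPM with shCTR9 hairpin 3, at 60.1, 49.0, 54.2 and 41.7 CPM with hairpin 5, and at 93.7, 92.7, 90.7 and 75.5 CPM with shNTC. With shCDC73 it stood at 48.2, 41.6, 39.7 and 35.6 CPM for hairpin 3 and at 75.5, 63.8, 87.1 and 45.8 CPM for hairpin 4. The 3 highest knockdown values, 92.6, 87.1 and 75.5 CPM, are those of the 3 libraries in which short transcripts were raised. The change was -0.74 ± 0.16 with shCTR9 (edgeR adjusted p = 0.000143) and -0.75 ± 0.16 with shCDC73 (edgeR adjusted p = 0.000108). Without the 3 libraries it was -0.93 ± 0.12 with shCTR9 (edgeR adjusted p = 7.31e-11) and -0.90 ± 0.12 with shCDC73 (edgeR adjusted p = 5.51e-10). With hairpin 4 of shCDC73 alone the fall in EtOH was not called, at -0.40 ± 0.18 (edgeR adjusted p = 0.0763). SNHG6 overlaps MCMDC2 on the opposite strand, which had 127 reads in all 40 libraries.

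SNHG8, host of an H/ACA snoRNA, fell with shCTR9 in Dox. In Dox it stood at 35.8, 32.3, 24.7 and 33.0 CPM with shCTR9 hairpin 3, at 39.4, 38.2, 26.8 and 32.4 CPM with hairpin 5, and at 69.0, 46.4, 46.7 and 56.7 CPM with shNTC. The groups did not overlap, and the change was -0.73 ± 0.24 (edgeR adjusted p = 0.0126). It was not called without Dox shNTC replicate 1 (-0.60, edgeR adjusted p = 0.0756). With hairpin 3 alone it was called (-0.80 ± 0.28, edgeR adjusted p = 0.0237), and with hairpin 5 alone it was not (-0.67 ± 0.28, edgeR adjusted p = 0.0659). With shCDC73 in Dox it stood at 50.1, 35.5, 31.6 and 27.8 CPM for hairpin 3 and at 45.9, 39.4, 42.1 and 41.6 CPM for hairpin 4, a difference of -0.49 ± 0.23 that was not called (edgeR adjusted p = 0.0889).

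In EtOH SNHG8 stood at 85.2, 29.7, 32.7 and 38.0 CPM with shCTR9 hairpin 3, at 45.3, 39.1, 28.6 and 20.9 CPM with hairpin 5, and at 59.1, 65.1, 54.5 and 39.4 CPM with shNTC. With shCDC73 it stood at 31.3, 37.5, 24.7 and 37.3 CPM for hairpin 3 and at 79.8, 39.99, 78.8 and 33.2 CPM for hairpin 4. Outside the 3 libraries only 2 of 13 knockdown values, 45.3 and 39.99 CPM, lay above the lowest control, and none reached the next one. Over all libraries the differences were -0.47 ± 0.23 with shCTR9 (edgeR adjusted p = 0.0966) and -0.35 ± 0.23 with shCDC73 (edgeR adjusted p = 0.208). Without the 3 libraries they were -0.71 ± 0.15 with shCTR9 (edgeR adjusted p = 2.8e-05) and -0.67 ± 0.15 with shCDC73 (edgeR adjusted p = 9.53e-05). In Dox, where none of the 3 lies, the fit without them gave -0.74 ± 0.14 with shCTR9 (edgeR adjusted p = 7.55e-06) and -0.50 ± 0.14 with shCDC73 (edgeR adjusted p = 0.00172), with standard errors smaller than those over all libraries (0.24 and 0.23).

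**Figure D2:**
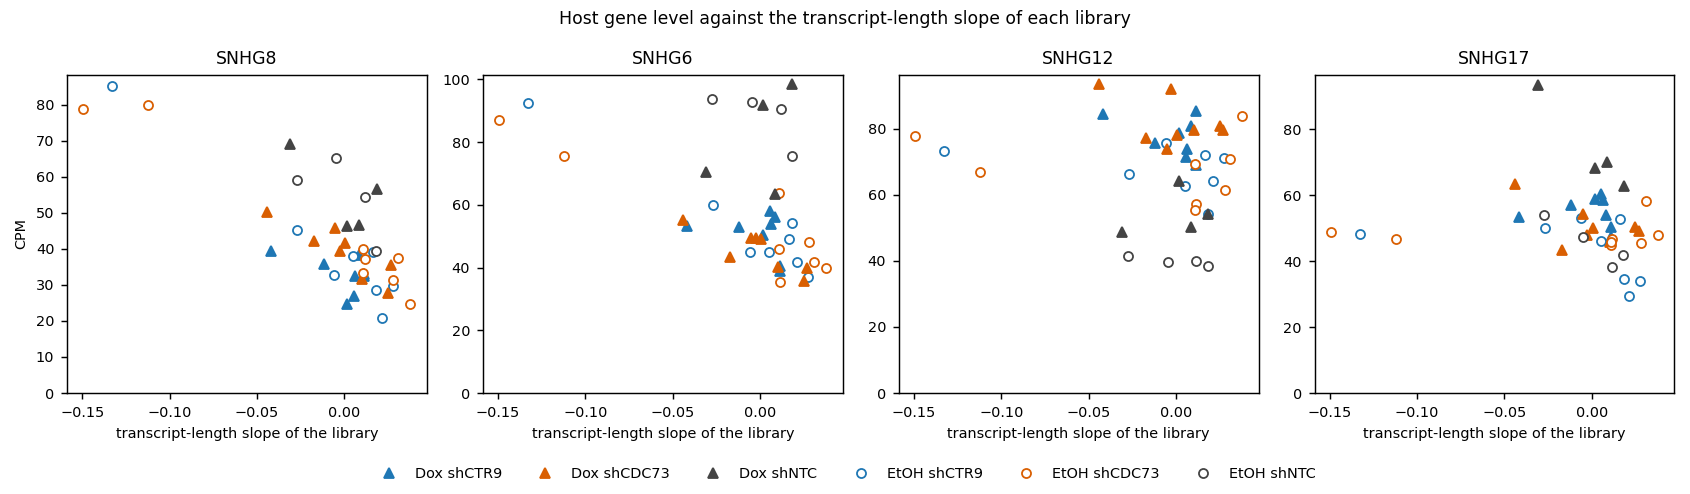
CPM of SNHG8, SNHG6, SNHG12 and SNHG17 (vertical axes, from 0) against the transcript-length slope of each library (horizontal axes, log2 CPM per log2 length), 1 point per library, with Dox as filled triangles and EtOH as open circles. The 3 libraries at slopes of -0.11 to -0.15 hold the highest SNHG8 values, 78.8 to 85.2 CPM, while their SNHG12 and SNHG17 values overlap those of the other libraries of their groups.

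SNHG5, a box C/D host, rose with shCTR9. In Dox it stood at 43.2, 63.2, 47.5 and 49.1 CPM with hairpin 3, at 56.6, 47.2, 58.1 and 39.7 CPM with hairpin 5, and at 30.9, 36.6, 36.4 and 29.9 CPM with shNTC, with no overlap. In EtOH it stood at 56.5, 46.0, 43.9 and 44.2 CPM with hairpin 3, at 43.7, 35.2, 23.5 and 39.98 CPM with hairpin 5, and at 24.5, 30.6, 23.7 and 17.6 CPM with shNTC, where 1 knockdown library overlapped the controls. The change was 0.60 ± 0.18 in Dox (edgeR adjusted p = 0.00515) and 0.77 ± 0.19 in EtOH (edgeR adjusted p = 0.000775), and each hairpin alone was called in both treatments. With shCDC73 the differences were 0.26 ± 0.18 in Dox (edgeR adjusted p = 0.25) and 0.42 ± 0.20 in EtOH (edgeR adjusted p = 0.073). In EtOH without the 3 libraries the values were 0.72 ± 0.16 with shCTR9 (edgeR adjusted p = 9.48e-05) and 0.14 ± 0.18 with shCDC73 (edgeR adjusted p = 0.555).

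Set directly against each other, shCTR9 and shCDC73 gave no called difference for any member by edgeR, against 10.3% of all genes called in Dox and 14.9% in EtOH. For SNHG5 shCTR9 was higher than shCDC73 by 0.34 ± 0.14 in Dox (95% interval 0.06 to 0.62, edgeR adjusted p = 0.118) and by 0.36 ± 0.15 in EtOH (95% interval 0.06 to 0.66, edgeR adjusted p = 0.0953), the only member with an unadjusted p under 0.05 in either. Without the 3 libraries it was called in both, at 0.34 ± 0.11 in Dox (edgeR adjusted p = 0.0286) and 0.59 ± 0.15 in EtOH (edgeR adjusted p = 0.00225). For SNHG12 the interval of the difference ran from -0.25 to 0.09 in Dox and from -0.18 to 0.17 in EtOH.

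**Figure D3:**
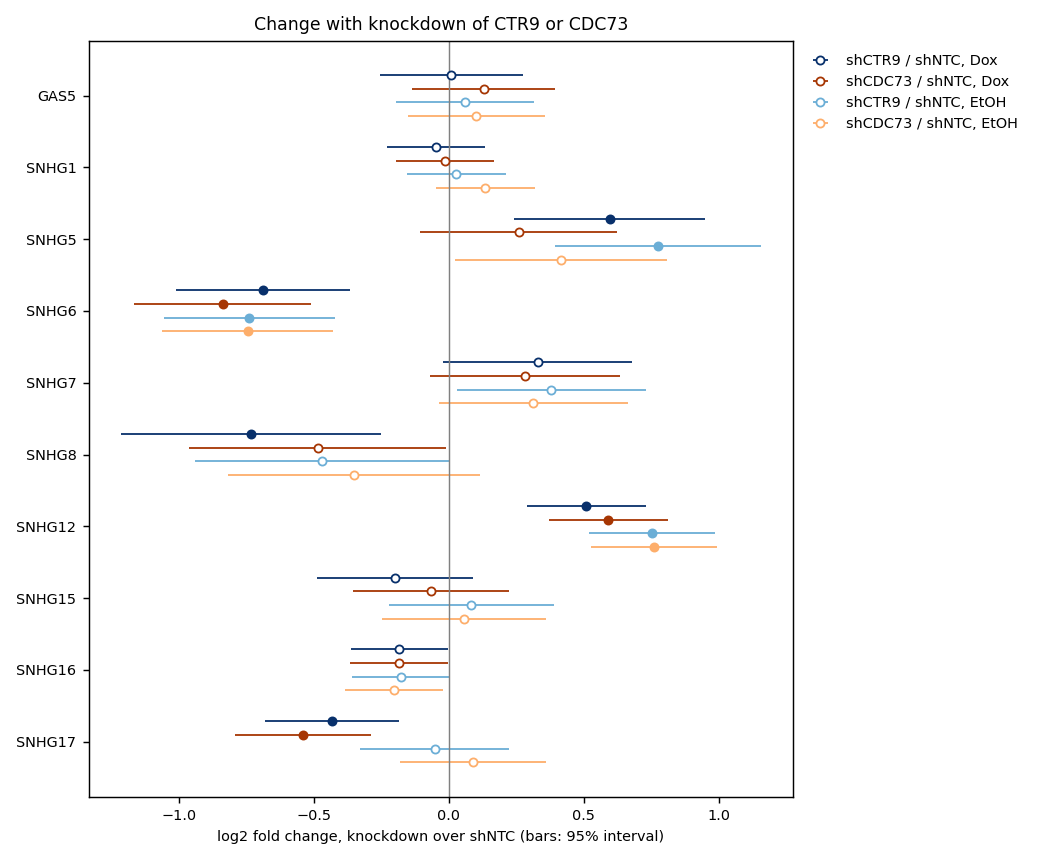
Log2 fold change of each host gene, knockdown over shNTC (horizontal axis), in Dox and in EtOH, with 95% intervals from the edgeR fit over 8 knockdown and 4 shNTC libraries. Filled points passed the adjusted threshold of 0.05. SNHG12 lies right of 0 and SNHG6 left of 0 in all 4 comparisons, and SNHG17 lies left of 0 in Dox, at -0.43 and -0.54.

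The remaining members showed no called change with knockdown when the hairpins were averaged. SNHG7 was higher in each comparison, by 0.28 to 0.38, with adjusted p from 0.071 to 0.189, and overlaps FAM69B on the opposite strand by 1094 exonic bases. FAM69B (also named DIPK1B) was not called in any of the 4, with changes of -0.22 to 0.41 and edgeR adjusted p values of 0.0973 and above. Group means of FAM69B ran from 15.4 to 33.4 CPM. With hairpin 3 alone SNHG7 rose with shCTR9 in EtOH (0.57, edgeR adjusted p = 0.0172) and with shCDC73 in Dox (0.47, edgeR adjusted p = 0.0466). The other hairpin was not called in either. Without the 3 libraries SNHG7 was called in Dox, at 0.32 ± 0.11 with shCTR9 (edgeR adjusted p = 0.0105) and 0.27 ± 0.11 with shCDC73 (edgeR adjusted p = 0.0329). In EtOH, where 3 of the 16 knockdown libraries are those left out, it was then 0.25 ± 0.11 with shCTR9 (edgeR adjusted p = 0.0506) and 0.06 ± 0.12 with shCDC73 (edgeR adjusted p = 0.72). SNHG16 stood at -0.20 to -0.18 in all 4, with adjusted p from 0.0556 to 0.102, and without the 3 libraries was called with shCDC73 in Dox (-0.20 ± 0.08, edgeR adjusted p = 0.0466). In GENCODE it overlaps AC015802.6, a protein-coding gene on the opposite strand without an entry in the count tables, by 1639 exonic bases. With shCTR9 hairpin 3 alone SNHG16 fell in Dox (-0.36, edgeR adjusted p = 0.0059) and in EtOH (-0.31, edgeR adjusted p = 0.0146). It also fell with shCDC73 hairpin 3 alone in Dox (-0.29, edgeR adjusted p = 0.0192). So it did with shCDC73 hairpin 4 alone in EtOH (-0.31, edgeR adjusted p = 0.0191). In none of these was the other hairpin called. GAS5 (0.01 to 0.13), SNHG1 (-0.05 to 0.14) and SNHG15 (-0.20 to 0.08) stayed within those ranges of log2 fold change. In EtOH without those libraries the values with shCTR9 and with shCDC73 were -0.04 and 0.01 for GAS5, -0.02 and 0.15 for SNHG1, -0.02 and -0.14 for SNHG15, and -0.17 and -0.21 for SNHG16, none of them called. SLC3A2, the amino acid transporter subunit whose start lies head to head with that of SNHG1, 188 bases away, rose with shCDC73 in Dox (0.45 ± 0.11, edgeR adjusted p = 0.00068) and in EtOH (0.82 ± 0.11, edgeR adjusted p = 4.18e-08), while SNHG1 stood at -0.01 ± 0.09 and 0.14 ± 0.09. With shCTR9 SLC3A2 was not called in Dox (0.15 ± 0.11, edgeR adjusted p = 0.261) and rose in EtOH (0.43 ± 0.11, edgeR adjusted p = 0.00134). The shCDC73 hairpins differed for SLC3A2, hairpin 4 against 3 standing at -0.62 ± 0.12 in Dox (edgeR adjusted p = 0.000305) and -0.39 ± 0.12 in EtOH (edgeR adjusted p = 0.0118). In Dox SLC3A2 averaged 767 CPM with hairpin 3, 498 CPM with hairpin 4 and 453 CPM with shNTC.

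For MYC induction, the question was which hosts changed in Dox over EtOH. In shNTC cells 2 of the 10 members rose, SNHG17 and SNHG12, and none fell, against 17.4% of all genes called (8.49% rose, 8.93% fell). The median log2 fold change of the members was 0.13 and that of all genes -0.01. In shCTR9 cells SNHG17 was the only member called (18.3% of all genes called), and in shCDC73 cells SNHG12 was (17.5% of all genes called). The Dox libraries lay wholly above or below the EtOH libraries in shNTC cells for 4 members, GAS5, SNHG12, SNHG15 and SNHG17, against 22.7% of all genes.

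SNHG17, a host of H/ACA snoRNAs, stood at 93.4, 68.4, 70.0 and 63.0 CPM in Dox shNTC cells and at 54.0, 47.5, 38.1 and 41.9 CPM in EtOH shNTC cells, with no overlap. It rose by 0.71 ± 0.15 (1.64-fold, edgeR adjusted p = 0.000385). In shCTR9 cells it stood at 47.4 to 60.3 CPM in Dox (median 55.5, n = 8) and at 29.5 to 53.1 CPM in EtOH (median 47.1, n = 8), a rise of 0.33 ± 0.11 (edgeR adjusted p = 0.0297) that was not called with either hairpin alone (adjusted p = 0.231 for hairpin 3 and 0.19 for hairpin 5). That call was lost without any 1 of Dox shCTR9 hairpin 3 replicate 2, Dox shCTR9 hairpin 5 replicate 3, EtOH shCTR9 hairpin 3 replicate 2, or EtOH shCTR9 hairpin 5 replicate 3 or 4, where it was 0.26 to 0.31. In shCDC73 cells it stood at 43.3 to 63.3 CPM in Dox (median 49.6, n = 8) and at 44.9 to 58.3 CPM in EtOH (median 46.8, n = 8), a difference of 0.08 ± 0.11 (edgeR adjusted p = 0.675).

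Within Dox, SNHG17 was thus lower in knockdown cells than in shNTC cells, at -0.43 ± 0.12 with shCTR9 (edgeR adjusted p = 0.004) and at -0.54 ± 0.13 with shCDC73 (edgeR adjusted p = 0.000387), and each of the 4 hairpins alone was called. The groups did not overlap with shCTR9, and overlapped in 1 library, at 63.3 CPM, with shCDC73. The highest control, Dox shNTC replicate 1 at 93.4 CPM, bears on this: without it the change was -0.29 with shCTR9 (edgeR adjusted p = 0.0788). In EtOH the differences were -0.05 ± 0.14 with shCTR9 (edgeR adjusted p = 0.784) and 0.09 ± 0.14 with shCDC73 (edgeR adjusted p = 0.611), and without the 3 libraries -0.07 and 0.07. The test of the difference in Dox response itself did not pass, at -0.38 ± 0.18 for shCTR9 minus shNTC (edgeR adjusted p = 0.458) and -0.63 ± 0.18 for shCDC73 minus shNTC (edgeR adjusted p = 0.132). No member was called in these tests, against 0.597% and 0.47% of all genes. At an unadjusted p under 0.05 SNHG17 was the only member in either, and DESeq2 called none. MYC itself was lower in Dox knockdown cells than in Dox shNTC cells, at -0.52 ± 0.06 with shCTR9 (edgeR adjusted p = 1.89e-09) and at -0.66 ± 0.06 with shCDC73 (edgeR adjusted p = 1.33e-12), and its part in the SNHG17 values was not tested.

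SNHG12 rose in Dox by 0.45 ± 0.13 in shNTC cells (edgeR adjusted p = 0.0158), where its 4 Dox libraries at 48.9 to 64.3 CPM lay above its 4 EtOH libraries at 38.6 to 41.4 CPM. Without Dox shNTC replicate 2 the change was 0.35 (edgeR adjusted p = 0.0961). In shCDC73 cells it rose by 0.28 ± 0.09 (edgeR adjusted p = 0.0192), which was not called without Dox shCDC73 hairpin 3 replicate 1, Dox shCDC73 hairpin 4 replicate 2, EtOH shCDC73 hairpin 3 replicate 4 or EtOH shCDC73 hairpin 4 replicate 4 (0.24 in each case). It was not called with either shCDC73 hairpin alone (adjusted p = 0.157 for hairpin 3 and 0.135 for hairpin 4), and with hairpin 4 alone SNHG16 was the member called (0.32 ± 0.11, edgeR adjusted p = 0.0365). In shCTR9 cells the difference was 0.20 ± 0.09 (edgeR adjusted p = 0.103). The difference in response from shNTC cells was -0.25 ± 0.16 for shCTR9 (95% interval -0.57 to 0.08) and -0.17 ± 0.16 for shCDC73 (95% interval -0.49 to 0.15).

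SNHG15, host of an H/ACA snoRNA, stood at 69.7, 70.0, 70.0 and 70.1 CPM in Dox shNTC cells and at 66.7, 52.1, 50.6 and 38.6 CPM in EtOH shNTC cells. The groups did not overlap, but the difference of 0.43 ± 0.17 missed the threshold (edgeR adjusted p = 0.0725). Without the 3 libraries, none of them among these 8, SNHG15 was called at 0.44 ± 0.14 in shNTC cells (edgeR adjusted p = 0.0118) and at 0.49 ± 0.11 in shCDC73 cells (edgeR adjusted p = 0.000416). SNHG5 differed by 0.46 ± 0.22 in shNTC cells (edgeR adjusted p = 0.156), and without the 3 libraries was called in shCTR9 cells (0.33 ± 0.12, edgeR adjusted p = 0.0329) and in shCDC73 cells (0.58 ± 0.14, edgeR adjusted p = 0.00137). GAS5 differed by -0.24 ± 0.15 in shNTC (edgeR adjusted p = 0.305), -0.29 ± 0.11 in shCTR9 (edgeR adjusted p = 0.0532) and -0.21 ± 0.11 in shCDC73 cells (edgeR adjusted p = 0.177). SNHG1, SNHG6, SNHG7, SNHG8 and SNHG16 had adjusted p values of 0.304 or more in each, and without the 3 libraries SNHG7 was called in shCDC73 cells (0.26 ± 0.10, edgeR adjusted p = 0.0478).

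**Figure D4:**
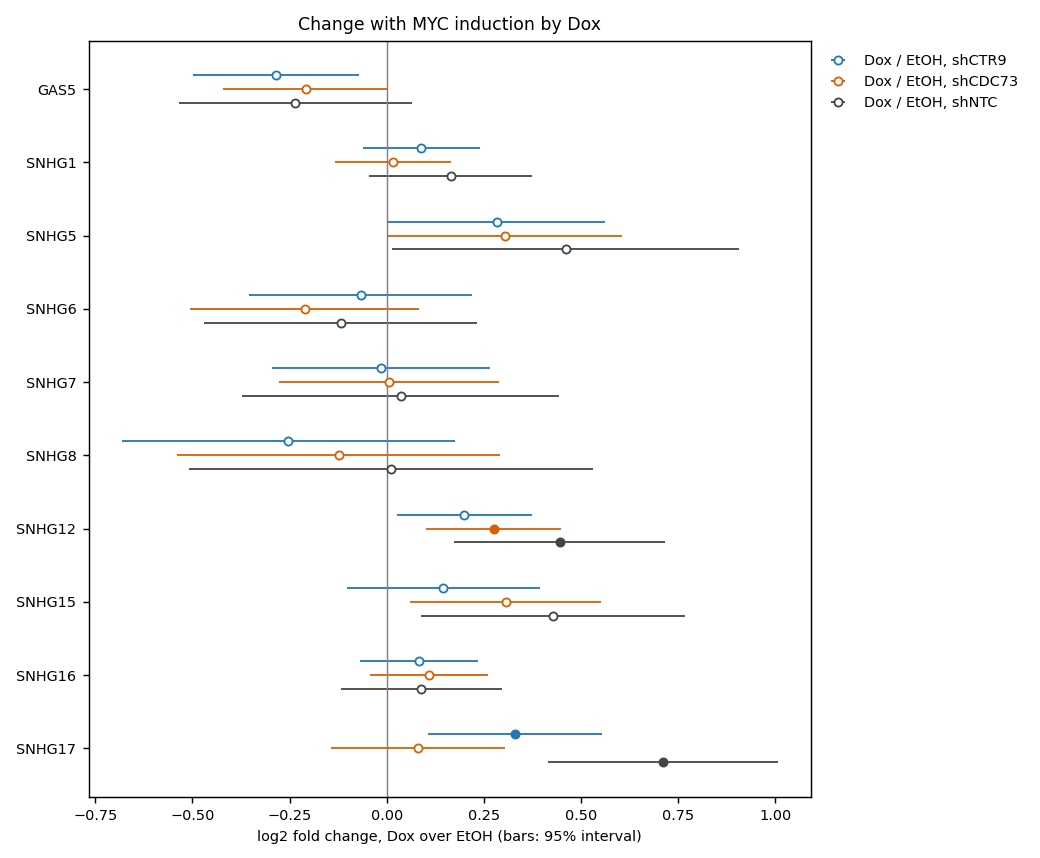
Log2 fold change of each host gene, Dox over EtOH (horizontal axis), in shCTR9, shCDC73 and shNTC cells, with 95% intervals from the edgeR fit (8 against 8 libraries in each knockdown, 4 against 4 in shNTC). Filled points passed the adjusted threshold of 0.05. SNHG17 lies at 0.33 in shCTR9, 0.08 in shCDC73 and 0.71 in shNTC cells.

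The hairpins against a target were compared with each other. With shCDC73 in EtOH, hairpin 4 was above hairpin 3 by 0.70 ± 0.20 for SNHG6 (edgeR adjusted p = 0.00644) and by 0.79 ± 0.28 for SNHG8 (edgeR adjusted p = 0.0301), against 31.2% of all genes called. Of the 4 libraries with hairpin 4, 2 are among the 3 in which short transcripts were raised. Without those the differences were 0.43 ± 0.18 for SNHG6 (edgeR adjusted p = 0.0795) and 0.19 ± 0.22 for SNHG8 (edgeR adjusted p = 0.598). In the other 3 comparisons of hairpins edgeR called no member, against 13% of all genes for shCDC73 in Dox, 0.279% for shCTR9 in Dox and 0.589% for shCTR9 in EtOH.

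Across the 10 group means of log2 CPM, SNHG6 and SNHG12 ran in opposite directions (Pearson r = -0.85), while SNHG6 ran with SNHG8 (r = 0.84) and SNHG5 with SNHG12 (r = 0.77). SNHG6 and SNHG8 are both among the members raised in the 3 libraries. Among 8501 genes averaging 20 CPM or more, those most alike in pattern were RBM38 (r = 0.98) and SEMA3G (r = 0.98) for SNHG12, DGUOK (r = 0.99) and OSTC (r = 0.98) for SNHG6, ANP32B (r = 0.98) and RPL11 (r = 0.97) for SNHG8, and FASTKD2 and DNAJC6 (r = 0.95 each) for SNHG5. For SNHG17 they were PRPF38B (r = 0.94) and FAM185A (r = 0.93), and for GAS5 they were ATP6AP2 (r = 0.96) and FLOT2 (r = 0.94). For SNHG7 they were ZNHIT1 and UBL5 (r = 0.93 each), for SNHG15 AKAP8 (r = 0.94) and STK25 (r = 0.93), for SNHG16 CAPRIN1 (r = 0.94) and POMK (r = 0.93), and for SNHG1 KDM1B (r = 0.85) and HOMER1 (r = 0.83). These values are descriptions over 10 means that share libraries and depth.

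Other noncoding hosts also moved in both directions. Of 19 listed, 10 were tested, and 3 rose and 3 fell in each of the 4 knockdown comparisons, where 41.8% to 49% of all genes were called. SNHG29 fell with shCTR9 in Dox (-0.60 ± 0.08, edgeR adjusted p = 8.72e-08) and SNHG32 fell by 1.19 ± 0.15 (edgeR adjusted p = 4.15e-09), while DANCR rose by 0.58 ± 0.08 (edgeR adjusted p = 2.96e-08) and SNHG19 by 0.85 ± 0.27 (edgeR adjusted p = 0.0127). In Dox over EtOH in shNTC cells 1 rose, SNHG30 (0.77 ± 0.20, edgeR adjusted p = 0.00439). Of 26 protein-coding hosts tested, 3 rose and 10 fell with shCTR9 in Dox, 4 and 11 with shCDC73 in Dox, 5 and 11 with shCTR9 in EtOH, and 5 and 14 with shCDC73 in EtOH, beside shares of all genes called of 41.8%, 44.9%, 45.6% and 49%. SF3B3, a splicing factor subunit, fell by 1.07 ± 0.09 with shCDC73 in Dox (edgeR adjusted p = 2e-14), and ATP5F1B, an ATP synthase subunit, rose by 0.51 ± 0.06 (edgeR adjusted p = 2.81e-09). With MYC induction in shNTC cells 4 of the 26 rose and none fell (8.49% of all genes rose and 8.93% fell), among them NCL, encoding nucleolin (0.31 ± 0.06, edgeR adjusted p = 0.00023).

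Of 19 proteins that build snoRNA particles, 6 rose and none fell in Dox over EtOH in shNTC cells, where 8.49% of all genes rose and 8.93% fell, among them NOLC1, a nucleolar chaperone of snoRNA particles (0.56 ± 0.08, edgeR adjusted p = 2.93e-07), and NAF1, an assembly factor of H/ACA particles (0.99 ± 0.19, edgeR adjusted p = 0.000101). With knockdown 4 to 7 rose and 2 or 3 fell, 7 to 9 of 19 in all, beside 41.8% to 49% of all genes. NOP56, a core C/D protein, rose by 0.54 ± 0.08 with shCDC73 in Dox (edgeR adjusted p = 8.2e-07), and RUVBL1, an ATPase of the assembly machinery, fell by 0.85 ± 0.09 (edgeR adjusted p = 3.78e-11). Of 18 nonsense-mediated decay factors, 1 to 3 rose and 3 to 7 fell with knockdown, 5 to 8 of 18 in all, which lies near or below the 41.8% to 49% of all genes. EIF4A3, the exon junction helicase, rose by 1.30 ± 0.09 with shCTR9 in Dox (edgeR adjusted p = 1.33e-17), and SMG9, a regulator of the SMG1 kinase, fell by 0.69 ± 0.15 (edgeR adjusted p = 0.000128). Of 17 other TOP genes of translation, 0 to 2 rose and 6 to 8 fell with knockdown, 7 to 9 of 17 in all, which lies near the 41.8% to 49% of all genes. Among those that fell was PABPC1, the poly(A)-binding protein, at -0.82 ± 0.06 with shCTR9 in Dox (edgeR adjusted p = 1.64e-16). For knockdown the shares of all genes pool rises and falls, so they do not bear on how a list split between the directions. The lists share genes, so their counts are not separate. NOP56, NOP58 and DKC1 are listed both as protein-coding hosts and as particle proteins. EEF1B2, EEF2, RACK1 and TPT1 are listed both as protein-coding hosts and as TOP genes.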

How the data were processed

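The deposited files hold whole-number read counts per Ensembl gene for each library. Per the submitters' processing notes, Bowtie, HISAT2, edgeR and hg19 were used, without versions or roles, and the counter, annotation and strand setting were not given in the sources used. From these counts, genes with low counts were removed (filterByExpr, minimum count 10, minimum total 15), libraries were scaled by TMM, and edgeR 4.0.16 in R 4.3.3 fitted 1 mean per group over all 40 libraries with robust quasi-likelihood dispersions and 30 residual degrees of freedom. Contrasts averaged the hairpins against a target, and p-values were adjusted by Benjamini-Hochberg over 12557 genes at a threshold of 0.05. The script was tested on simulated data. DESeq2 1.42.0 was an alternative. Names, lengths, neighbours and sequences came from GENCODE and RefSeq tables of GRCh38, with no coordinates converted from hg19. The genes named are the members, the MYC, CTR9 and CDC73 checks, up to 4 genes with the smallest p per list and comparison, neighbours, and the 2 genes most alike to each member. The members and lists were chosen with earlier results of these data known. A count of 0 allows up to 3 counts, or 3.42 CPM in the shallowest and 1.96 CPM in the deepest library, for counting error only.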

Additional observations from a re-analysis of the deposited data

Results flagged for a closer look

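In 10 of the 100 sets of 4 libraries (10 genes in 10 groups) 1 library stood apart from the other 3 by Dixon's test, where chance gives about 1 set in 20. EtOH shCTR9 hairpin 3 replicate 1, one of the libraries in which short transcripts were raised, accounted for 4 of them. It had 156 CPM of GAS5 (next highest 102), 56.5 CPM of SNHG5 (next 46.0), 92.6 CPM of SNHG6 (next 45.1) and 85.2 CPM of SNHG8 (next 38.0). The other high values were 93.7 CPM of SNHG12 in Dox shCDC73 hairpin 3 replicate 1 (next 80.9) and 138 CPM of SNHG7 in EtOH shCTR9 hairpin 5 replicate 1 (next 91.2). The low values were 177 CPM of SNHG1 in Dox shCDC73 hairpin 3 replicate 4 (next lowest 211), 47.4 CPM of SNHG17 in Dox shCTR9 hairpin 3 replicate 4 (next 57.0), 43.3 CPM of SNHG6 in Dox shCDC73 hairpin 4 replicate 3 (next 49.1) and 75.5 CPM of SNHG6 in EtOH shNTC replicate 4 (next 90.7).

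Between hairpins 4 and 3 of shCDC73 in EtOH, SNHG6 differed by 0.70 and SNHG8 by 0.79 on the log2 scale (edgeR adjusted p = 0.00644 and 0.0301). The libraries with raised short transcripts are 2 of the 4 with hairpin 4, and neither difference was called without them.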

How the results depend on the processing

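Across 150 comparisons of a member, 3890 values were recomputed, of which 3742 kept their side of the threshold, 41 lost a call, 106 gained one and 1 reversed. A change of direction was counted only for results called in the main fit. The reversal was SNHG8 between hairpins 4 and 3 of shCDC73 in EtOH, at -0.020 with each library's length slope as a covariate (edgeR adjusted p = 0.953). That covariate, the alternatives for the hairpin contrasts and the 3 libraries left out were chosen after seeing the data. DESeq2 changed none of the 150 calls. The cause of the changes below was not tested. Members called by Dox in shCDC73 cells (1) numbered 0 with no filter, 0 with only the groups compared, 0 with hairpin 3 alone, 1 with hairpin 4 alone (SNHG16 in place of SNHG12), 2 with the replicate block, 3 with the slope and 4 without the 3 libraries. By Dox in shCTR9 cells (1) they were 2 with no filter, 2 with the block, 0 with either hairpin alone, 3 with the slope and 2 without the 3 libraries, and by Dox in shNTC cells (2) they were 4 with only the groups compared and 4 with the slope. With shCDC73 in Dox (3) they were 5 with only the groups compared, 5 with hairpin 3 alone, 6 with the slope and 6 without the 3 libraries, with shCDC73 in EtOH (2) 4 with the block and 4 with the slope, and with shCTR9 in EtOH (3) 5 with the block, 5 with hairpin 3 alone and 5 with the slope. For shCTR9 against shCDC73 (0) there was 1 in Dox with only the groups compared, the slope or without the 3 libraries, and 1 in EtOH with the block, shCTR9 hairpin 3 alone, the slope or without the 3 libraries. For the difference in Dox response of shCDC73 (0) the slope gave 1, SNHG17 at -0.60 (edgeR adjusted p = 0.0217). Between shCDC73 hairpins there were 1 with only the groups compared, 2 with the slope and 2 without the 3 libraries in Dox (0), and 1, 1 and 0 in EtOH (2), and between shCTR9 hairpins in Dox (0) 1 with only the groups compared and 1 with the slope. Leaving out single libraries or replicate numbers gave 0 to 3 members by Dox in shCDC73, 0 to 2 in shCTR9 and 1 to 3 in shNTC cells, 0 to 3 between shCDC73 hairpins in EtOH, and 0 to 1 for shCTR9 against shCDC73 in EtOH. SNHG12 and SNHG6 kept their calls in all 4 knockdown comparisons under every library left out, SNHG12 at 0.43 to 0.83. The labels tie replicate numbers to no shared source, and the main fit did not pair the libraries by them. The correlation of deviations passed 0.1 in 42 of 180 pairs with equal numbers (median 0.0454), against 7 of 180 and 28 of 360 other pairs (medians -0.0057 and -0.0172). Pairs with equal numbers thus passed it more often, though most did not. Whether the numbers mark a shared source was not tested. The replicate block gained GAS5 (Dox in shCTR9, adjusted p = 0.0113), SNHG15 (Dox in shCDC73 and shNTC, 0.0346 and 0.028), SNHG8 (shCDC73 in Dox and shCTR9 in EtOH, 0.0294 and 0.0242), SNHG7 (shCTR9 in EtOH, 0.0454), SNHG5 and SNHG16 (shCDC73 in EtOH, 0.0465 and 0.0473), SNHG5 (shCTR9 against shCDC73 in EtOH, 0.0497) and GAS5 (shCDC73 hairpins in EtOH, 0.0469), and lost none of the calls. Of all genes, Dox changed 2187 in shNTC cells and 3369 with the slope. The difference in Dox response was called for 75 genes with shCTR9 (131 with the block, 343 with the slope, 154 without the 3 libraries) and 59 with shCDC73 (27 with only the groups compared, 93, 254 and 120). At 20 counts in the lowest library, SNHG5 is the member most limited by depth.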
